A study of Mus musculus with 33 samples.

Results

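The transcripts examined were 10 genes of the circulating signals that liver sends and receives: the ligands Fgf21, Gdf15, Inhbe and Igf1, the carrier subunit Igfals, the binding proteins Igfbp1, Igfbp2 and Igfbp4, and the receptors Ghr and Lepr. They were chosen by name from the 25988 genes of the count table, and all 10 were among the 10179 genes with enough counts to be tested. They were followed in 33 liver libraries of male C57BL/6J mice, aged 13 to 18 weeks when they received the virus, from a study of glycogen storage disease type Ia, in which loss of glucose-6-phosphatase (G6pc) traps glucose-6-phosphate in hepatocytes and the sugar-sensing transcription factor ChREBP (gene Mlxipl) is activated.

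All mice of the 4 groups carried floxed G6pc alleles, received an adeno-associated virus (AAV2/8) that expresses a short hairpin RNA from a U6 promoter, and were then injected with tamoxifen. The genotype was set by a tamoxifen-inducible Cre recombinase expressed from the albumin gene, so that deletion is directed to hepatocytes: L-G6pc-/- mice carried it and L-G6pc+/+ littermates did not. An effect of Cre itself therefore cannot be told apart from that of G6pc loss in any comparison between genotypes. The hairpin was directed against ChREBP (shChREBP) or scrambled (shSCR). With the scrambled hairpin there were 8 libraries of each genotype, and with shChREBP there were 8 of L-G6pc+/+ and 9 of L-G6pc-/-. Livers were taken from nonfasted animals on chow in the morning, 10 days after the last tamoxifen injection. Nothing in the labels says whether each library is a separate mouse, so p-values measure the spread between libraries.

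Liver is the main source of circulating IGF1. Growth hormone, acting through its receptor GHR, JAK2 and STAT5, drives the hepatic transcription of Igf1 and of Igfals, whose product (acid-labile subunit) holds IGF1 in a long-lived complex in blood, whereas insulin represses Igfbp1, which binds IGF1 for short periods. FGF21, GDF15 and activin E (the product of Inhbe) are hormones secreted by liver under fasting, cellular stress or sugar load, and the leptin receptor gene Lepr is expressed at a low level in normal hepatocytes, from which a soluble form can be shed into blood.

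On GRCm38 (GENCODE M21 annotation) the ligand genes are Fgf21 at chr7:45613886-45615490 (-), Gdf15 at chr8:70629393-70632456 (-), Inhbe at chr10:127348857-127354411 (-) and Igf1 at chr10:87858265-87937042 (+). Igfals lies at chr17:24865997-24882010 (+), Igfbp1 at chr11:7197782-7202546 (+), Igfbp2 at chr1:72824503-72852474 (+) and Igfbp4 at chr11:99041244-99054392 (+). The receptor genes are Ghr at chr15:3317760-3583492 (-) and Lepr at chr4:101717404-101815352 (+).

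The 10 genes differed in what their start sites hold. In RefSeq's promoter table (build GRCm38.p6, 250 bases before to 50 after each start site), the letters TGCATCA, which are shared by composite sites for C/EBP and ATF factors, were found on either strand in a window of Lepr, Fgf21, Gdf15 and Inhbe, that is 4 of the 10 genes, against 3.63% of the 27025 genes in the table (3.15% of its 32851 windows). They are printed below 5′ to 3′ on the gene's own strand with the match in capitals, because they are letters that 3 of the 4 ligand genes (not Igf1) and the leptin receptor gene share. Lepr holds the letters on the opposite strand, so they read TGATGCA there. The Inhbe match lies in annotated exon sequence of that gene, downstream of its outermost start.

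Lepr, chr4:101717164-101717190 (+), match at -233 to -227: aggtgatggcTGATGCAcatcagggga
Fgf21, chr7:45615612-45615638 (-), match at -138 to -132: acccccccatTGCATCAtccgtccagg
Gdf15, chr8:70632678-70632704 (-), match at -238 to -232: ttctgggcagTGCATCAggggtggggc
Inhbe, chr10:127352012-127352038 (-), match at -180 to -174: tcctctttctTGCATCAtgcatgtcca

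The 4 genes did not move together: as described below, Lepr and Fgf21 moved in opposite directions under shChREBP in L-G6pc-/- liver. The letters CACGTG, an E-box of the kind found in carbohydrate response elements, occurred in windows of Igfbp2, Fgf21 and Gdf15 (7.15% of all windows and 8.09% of all genes). The Gdf15 window with CACGTG is not the one with TGCATCA, and it lies inside the gene, downstream of its outermost start. A forkhead core, TGTTTAC, occurred in a window of Igfals alone among the 10 genes (3.65% of all windows and 4.05% of all genes). Only these exact letters were searched, so a forkhead site with other letters would not be counted. The spacing TTC-NNN-GAA that STAT factors bind was also present only at Igfals among the 10 genes (8.3% of all windows and 9.55% of all genes), once in each of 2 windows. It is printed because Igfals is one of the 3 genes that passed between genotypes with shSCR. The Igfals windows with these matches and with the forkhead core lie inside the annotated gene, downstream of its outermost start.

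Igfals, chr17:24877598-24877626 (+), match at -236 to -228: gatctataatTTCTCAGAAaagaggctga
Igfals, chr17:24878163-24878191 (+), match at -58 to -50: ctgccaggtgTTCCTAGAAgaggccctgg

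The 250 bases before the start sites of Lepr, the gene with the largest change, and of Fgf21, which holds both TGCATCA and CACGTG, are given in full with these letters in capitals. These are descriptions of letters in a window, and whether any of them is bound in these livers was not measured.

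Lepr, chr4:101717157-101717406 (+): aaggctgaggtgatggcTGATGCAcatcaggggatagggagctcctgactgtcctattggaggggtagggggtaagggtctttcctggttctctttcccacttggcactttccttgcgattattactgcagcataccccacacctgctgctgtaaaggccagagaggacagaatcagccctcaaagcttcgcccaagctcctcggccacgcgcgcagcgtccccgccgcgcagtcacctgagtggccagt
Fgf21, chr7:45615491-45615740 (-): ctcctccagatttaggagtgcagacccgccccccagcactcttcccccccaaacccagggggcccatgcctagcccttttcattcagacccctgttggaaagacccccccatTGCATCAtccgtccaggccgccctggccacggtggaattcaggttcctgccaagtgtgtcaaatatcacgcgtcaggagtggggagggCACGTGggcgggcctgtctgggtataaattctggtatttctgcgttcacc

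Libraries held between 1497843 and 3546852 counted reads (median 2141043), so low values rest on few reads. Levels below are in CPM (counts scaled per library by TMM to a common total) and differences are log2 fold changes from edgeR's quasi-likelihood test, called at a Benjamini-Hochberg adjusted p under 0.05 over all genes tested. The hairpin's target Mlxipl fell in both genotypes, by 0.55 on the log2 scale in L-G6pc+/+ (edgeR, adjusted p = 0.0129) and by 0.57 in L-G6pc-/- (edgeR, adjusted p = 0.00417). The fall in L-G6pc-/- was 0.27 and did not pass without the 4 libraries named next (edgeR, adjusted p = 0.214). G6pc itself was at 346 ± 192 CPM in shSCR/L-G6pc-/- and 236 ± 86.4 CPM in shSCR/L-G6pc+/+ (SD, n = 8 each), and since the 3′ tag counts any transcript that keeps its 3′ end, it does not check the deletion. The libraries s29, s30, s32 and s33 of shChREBP/L-G6pc-/- stood apart on the first principal component (14.7% of the variance) and had 216 to 359 CPM of Mlxipl, below the 441 to 500 CPM of the other 5 libraries of the group, so the calls of the 10 genes that rest on this group are also given without them. Hepatocyte markers were present throughout, with all 12 measured and a summed median of 64410 CPM in shSCR/L-G6pc+/+, 66830 in shChREBP/L-G6pc+/+, 58390 in shSCR/L-G6pc-/- and 50970 in shChREBP/L-G6pc-/-. In bulk tissue, fewer cells of a type and less RNA per cell cannot be told apart.

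**Figure D1:**
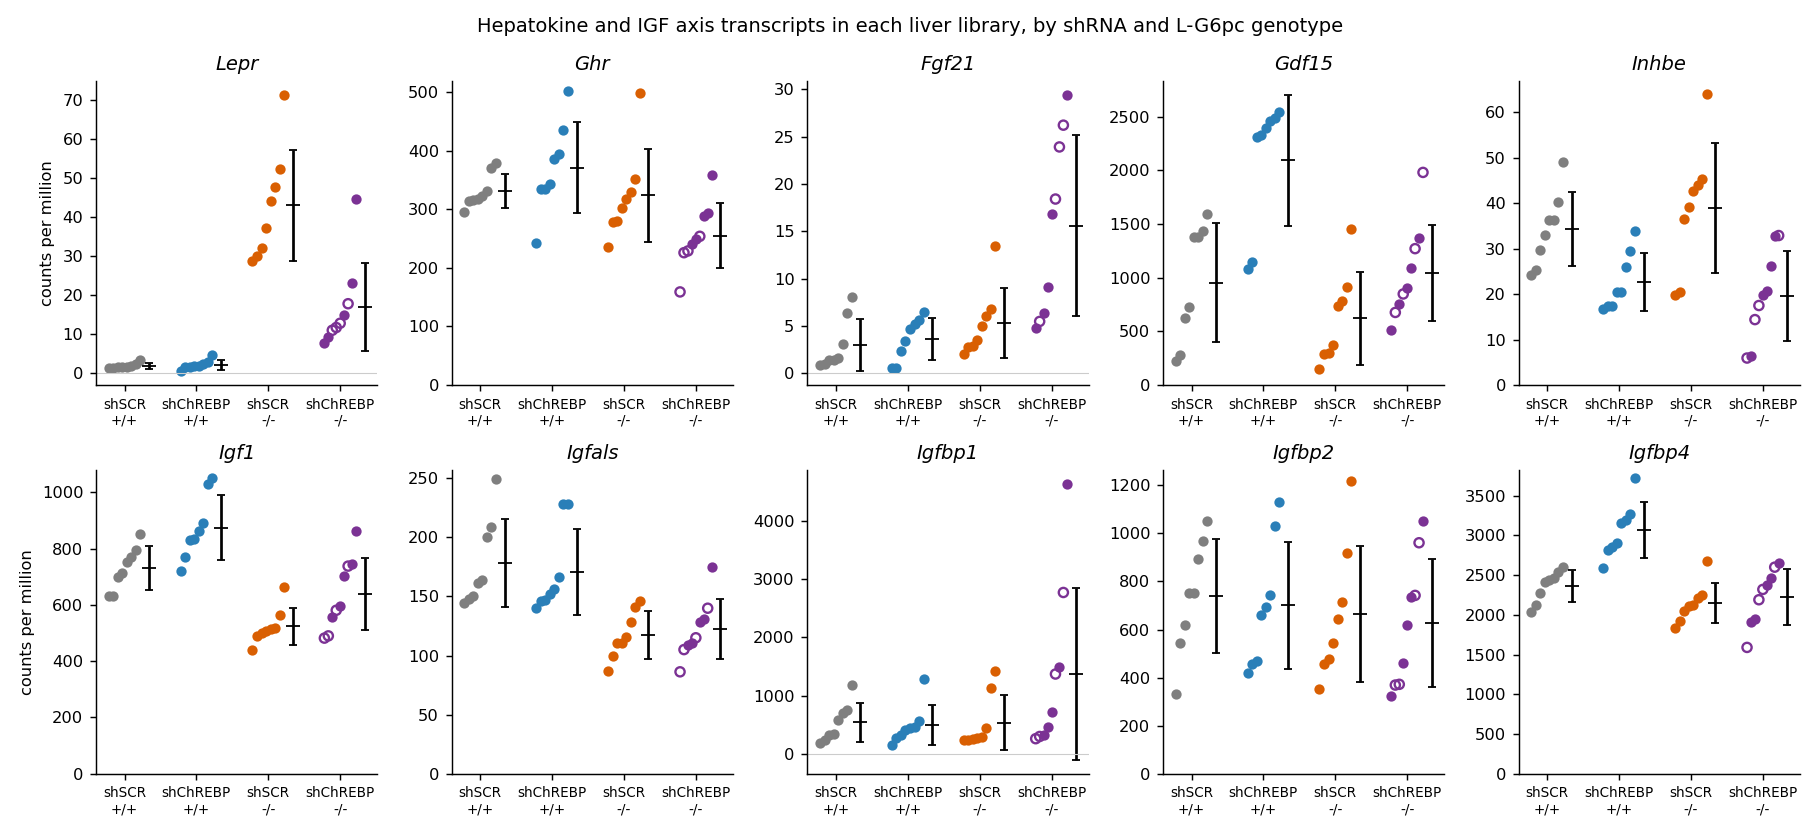
Each panel plots 1 gene in CPM (TMM-scaled) for every library in the 4 groups, with the libraries of a group sorted by value, the mean and SD as a black bar, and the libraries s29, s30, s32 and s33 as open circles. The Lepr values of both L-G6pc-/- groups lie above every L-G6pc+/+ value, whereas in the other panels the groups of each comparison overlap.

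Of the 2 receptors, Lepr carried the clearest change among the 10 genes. Lepr was close to the detection limit in L-G6pc+/+ liver and was much higher in L-G6pc-/- liver. In shSCR/L-G6pc+/+ its lowest, median and highest values were 1.36, 1.55 and 3.34 CPM, which correspond to between 3 and 12 reads per library. In shSCR/L-G6pc-/- they were 28.8, 40.7 and 71.3 CPM, or between 45 and 122 reads. The lowest shSCR/L-G6pc-/- library was therefore well above the highest control library. The difference was 4.46 on the log2 scale (95% interval 3.79 to 5.13), or 22-fold (edgeR, adjusted p = 2.46e-12), and between 4.32 and 4.69 when any 1 library was left out.

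Lepr was lower with shChREBP in the deficient liver and still above the level of controls. In shChREBP/L-G6pc-/- the lowest, median and highest values were 7.77, 12.8 and 44.5 CPM. The library s31, at 44.5 CPM, lay within the shSCR/L-G6pc-/- range, and the other 8 lay below it. The fall was 1.36 on the log2 scale (0.39-fold, 95% interval -1.84 to -0.87, edgeR, adjusted p = 0.000281), and 1.13 without the 4 libraries that stood apart (edgeR, adjusted p = 0.0426). The group still stood above shSCR/L-G6pc+/+ by 3.10 on the log2 scale, or 8.57-fold (edgeR, adjusted p = 1e-07; 3.33 and adjusted p = 5.19e-07 without the 4 libraries), and its 9 libraries did not overlap with the 8 controls. In CPM, 36.8% of the rise over shSCR/L-G6pc+/+ was left with the hairpin, and on the log2 scale 69.6% was left.

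Where G6pc was intact, shChREBP libraries held 0.512, 1.73 and 4.6 CPM of Lepr (lowest, median, highest), which overlapped with the scrambled controls (log2 difference 0.11, 95% interval -0.90 to 1.12). At 1 to 8 reads per shChREBP library, a rise of up to 1.12 on the log2 scale lies within this interval. The genotype difference in the presence of shChREBP was 2.99 on the log2 scale (edgeR, adjusted p = 3.1e-07; 3.22 and adjusted p = 1.88e-06 without the 4 libraries), again without overlap between groups. The difference of the shChREBP effects between genotypes was -1.47 (95% interval -2.60 to -0.34) and did not pass (edgeR, adjusted p = 0.274), so that the knockdown effect on Lepr was not shown to differ between genotypes. Lepr was the only 1 of the 10 genes whose groups did not overlap in any comparison. Over all genes tested, non-overlap was seen for 0.756% between shSCR/L-G6pc-/- and shSCR/L-G6pc+/+, for 0.727% between the shChREBP groups and for 1.67% between shChREBP/L-G6pc-/- and shSCR/L-G6pc+/+. It was seen for 0.865% and 0.707% with shChREBP in L-G6pc+/+ and L-G6pc-/-, where none of the 10 genes showed it. Leprot, a gene whose product acts on leptin receptor trafficking, had means of 14.5 to 16.3 CPM in the 4 groups and passed the test in none of the comparisons.

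Reads were counted per gene, and the annotated Lepr transcripts end at different 3′ ends, so that the counts do not tell apart the long signalling form from the short and soluble forms. The genes whose pattern over the 33 libraries was most like that of Lepr included Gpi1 (Pearson r of log2 CPM 0.95) and Apoa4 (0.921), out of 8956 candidates. These encode an isomerase of sugar metabolism and an apolipoprotein. Most of that likeness lay between groups, as the correlation of deviations from the group mean was 0.438 and 0.08 for these genes.

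Ghr, the growth hormone receptor gene, stood at 331 ± 29.1 CPM in shSCR/L-G6pc+/+ and 324 ± 79 CPM in shSCR/L-G6pc-/- (SD, n = 8 each). It did not pass between them (log2 difference -0.03, 95% interval -0.31 to 0.25). With shChREBP it was at 242, 365 and 502 CPM (lowest, median, highest) in L-G6pc+/+ and at 159, 249 and 359 CPM in L-G6pc-/-. The 2 ranges overlapped, and the deficient group was lower by 0.54 on the log2 scale (edgeR, adjusted p = 0.00624). The 4 libraries that stood apart lay at 159 to 254 CPM of Ghr and the other 5 at 240 to 359 CPM, and without those 4 the difference between the shChREBP groups was -0.37 (edgeR, adjusted p = 0.111). The test for a different shChREBP effect between genotypes gave -0.51 on the log2 scale (edgeR, adjusted p = 0.263). Against shSCR/L-G6pc+/+, shChREBP/L-G6pc-/- was at -0.38 and narrowly missed the threshold (edgeR, adjusted p = 0.0554; -0.21 and adjusted p = 0.542 without the 4 libraries). That difference passed with DESeq2 (adjusted p = 0.0432) and without library s31 (edgeR, -0.45, adjusted p = 0.0168). It also passed without any 1 of s12, s13, s17, s23, s26 or s28 (edgeR, adjusted p from 0.0328 without s23 to 0.0497 without s17). Without any other single library it missed, with adjusted p up to 0.128 (edgeR). The fall of Ghr with shChREBP in L-G6pc-/- was -0.34 (edgeR, adjusted p = 0.105), and without s31 it was -0.42 and passed (edgeR, adjusted p = 0.0396). Without any other single library this fall missed, with adjusted p up to 0.299 (edgeR).

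Igf1 and Igfals, the growth hormone-driven pair, were both lower in G6pc-deficient liver. Igf1 read 630, 734 and 852 CPM (lowest, median, highest) in shSCR/L-G6pc+/+ and 440, 512 and 663 CPM in shSCR/L-G6pc-/-. Only the highest deficient library, s22, reached the range of controls. The fall was 0.48 on the log2 scale (0.718-fold, 95% interval -0.70 to -0.26, edgeR, adjusted p = 0.00742). Igfals read 144, 162 and 249 CPM in controls and 86.6, 114 and 146 CPM in the deficient livers, with s19 alone overlapping. It fell by 0.61 on the log2 scale (0.657-fold, edgeR, adjusted p = 0.00623). Together with Lepr, these were the 3 of 10 genes that passed in this comparison, of which 1 was higher and 2 were lower, against 3.23% of all genes tested (2.2% higher and 1.03% lower). None of the 3 calls was lost when any 1 library was left out.

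The fall of the pair was also present between the shChREBP groups. Igf1 was at 874 ± 116 CPM in shChREBP/L-G6pc+/+ (n = 8) and 639 ± 129 CPM in shChREBP/L-G6pc-/- (n = 9), a difference of -0.45 (edgeR, adjusted p = 0.0042). Igfals was at 171 ± 36.4 and 122 ± 25.3 CPM, a difference of -0.48 (edgeR, adjusted p = 0.0141). Without the 4 libraries that stood apart, these became -0.33 (edgeR, adjusted p = 0.0639) and -0.38 (edgeR, adjusted p = 0.117), so both calls rest in part on those libraries. Whether the 2 genes differ in where they stood after knockdown was not tested. Igf1 in shChREBP/L-G6pc-/- was not called different from shSCR/L-G6pc+/+ (log2 -0.19, 95% interval -0.41 to 0.02), and Igfals was lower by 0.55 (edgeR, adjusted p = 0.00391; -0.44 and adjusted p = 0.109 without the 4 libraries).

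The effect of shChREBP on Igf1 was 0.26 in L-G6pc+/+ (edgeR, adjusted p = 0.153) and 0.28 in L-G6pc-/- (edgeR, adjusted p = 0.0936), neither of which passed. Igfals moved by -0.07 and 0.06 on the log2 scale in the same 2 comparisons. The 95% intervals of the Igfals effects ran from -0.34 to 0.21 and from -0.21 to 0.33. Within groups, libraries with more Igf1 also had more Igfals (r of deviations from the group mean 0.59, Spearman's rho 0.515, n = 33), with r = 0.888 in shSCR/L-G6pc+/+ and 0.154 in shSCR/L-G6pc-/-. Igf1 overlaps the antisense gene Igf1os, and whether counting used strand is not given in the sources used here, so reads of the 2 cannot be told apart.

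Among the stress hormones, Fgf21 rose with shChREBP in deficient liver. In shSCR/L-G6pc+/+ its lowest, median and highest values were 0.909, 1.49 and 8.08 CPM, and in shChREBP/L-G6pc+/+ they were 0.575, 4.04 and 6.49 CPM. They were 2, 4.26 and 13.4 CPM in shSCR/L-G6pc-/- and 4.78, 16.8 and 29.4 CPM in shChREBP/L-G6pc-/-. In the last group 5 of the 9 libraries lay above every other library, and the remaining 4 lay within the range of the others. The rise with shChREBP in L-G6pc-/- was 1.55 on the log2 scale (2.92-fold, 95% interval 0.72 to 2.37, edgeR, adjusted p = 0.0142). The group was also higher than shChREBP/L-G6pc+/+ (2.10, edgeR, adjusted p = 0.00137; 1.87 and adjusted p = 0.0134 without the 4 libraries that stood apart) and than shSCR/L-G6pc+/+ (2.42, or 5.33-fold, edgeR, adjusted p = 0.000196; 2.18 and adjusted p = 0.00756 without the 4 libraries).

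Neither factor alone moved Fgf21 past the threshold: G6pc loss gave 0.87 on the log2 scale (95% interval -0.16 to 1.90, edgeR, adjusted p = 0.454) and shChREBP in L-G6pc+/+ gave 0.31 (95% interval -0.79 to 1.41). The test of a different knockdown effect between genotypes gave 1.23 (95% interval -0.15 to 2.61, edgeR, adjusted p = 0.481). The values rest on 1 to 77 reads per library. Without the 4 libraries that stood apart, which held 5.48 to 26.2 CPM against 4.78 to 29.4 in the other 5, the rise in L-G6pc-/- was 1.31 and no longer passed (edgeR, adjusted p = 0.19). Two-sided exact permutation of the 17 libraries of that comparison gave an unadjusted p = 0.00786 for the difference in mean log2 CPM.

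Gdf15, a stress-induced hormone of the TGF-beta family, was spread over a wide range within groups. It read 220, 1051 and 1592 CPM (lowest, median, highest) in shSCR/L-G6pc+/+ and 1075, 2361 and 2541 CPM in shChREBP/L-G6pc+/+. Of the 8 shChREBP libraries, 6 lay above every control library, and the other 2, s12 and s16, lay inside the range of controls. The difference was 1.13 on the log2 scale (2.19-fold, 95% interval 0.39 to 1.88) and just missed the threshold (edgeR, adjusted p = 0.0608). It passed with limma-voom (1.37, adjusted p = 0.0316), in a fit of those 2 groups alone (edgeR, adjusted p = 0.039), and without s12, s19 or s21 (edgeR, adjusted p = 0.0457, 0.0464 and 0.0456). Of these, s19 and s21 are shSCR/L-G6pc-/- libraries, which enter only through the shared fit. Without any other single library the difference missed, with adjusted p up to 0.115 (edgeR). Scaling by library size alone also left it short (edgeR, adjusted p = 0.0668). Two-sided exact permutation of the 16 libraries gave p = 0.00482, not adjusted for the number of genes.

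In deficient liver, Gdf15 read 146, 556 and 1453 CPM with shSCR and 514, 906 and 1975 CPM with shChREBP, and these ranges overlapped. The log2 difference was 0.75 (95% interval 0.02 to 1.47, edgeR, adjusted p = 0.214; 0.58 and adjusted p = 0.646 without the 4 libraries that stood apart). Between the shChREBP groups, Gdf15 was at -1.003 in the deficient liver (95% interval -1.72 to -0.28, edgeR, adjusted p = 0.0604; -1.17 and adjusted p = 0.0877 without the 4 libraries). That difference passed without s3, s12, s19, s21 or s33 (edgeR, adjusted p = 0.0438, 0.0499, 0.0471, 0.0448 and 0.0274). Without any other single library it missed, with adjusted p up to 0.109 (edgeR). It also passed in a fit of the shChREBP groups alone (-0.996, edgeR, adjusted p = 0.00812) and without a filter on low counts (-0.987, edgeR, adjusted p = 0.0305). Two-sided exact permutation of the libraries of the shChREBP groups gave an unadjusted p = 0.0028. In order of their means, shSCR/L-G6pc-/- was lowest at 623 CPM, then came shSCR/L-G6pc+/+ at 954 CPM and shChREBP/L-G6pc-/- at 1045 CPM, and shChREBP/L-G6pc+/+ was highest at 2094 CPM. No step between neighbours in this order passed in the main analysis. Fgf21 and Gdf15 deviated together within groups (r = 0.454, rho = 0.462, n = 33), although their group means were ordered differently.

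Inhbe, which encodes the activin E subunit, fell with shChREBP in L-G6pc-/- liver. It read 24.3, 34.7 and 49.1 CPM (lowest, median, highest) in shSCR/L-G6pc+/+, 16.8, 20.4 and 33.9 CPM in shChREBP/L-G6pc+/+, 19.8, 40.9 and 64 CPM in shSCR/L-G6pc-/-, and 5.94, 19.9 and 32.9 CPM in shChREBP/L-G6pc-/-. All groups overlapped with each other. The fall in L-G6pc-/- was 0.97 on the log2 scale (0.511-fold, 95% interval -1.46 to -0.47, edgeR, adjusted p = 0.0105). That in L-G6pc+/+ was -0.60 and did not pass (95% interval -1.11 to -0.09, edgeR, adjusted p = 0.15), and the 2 effects were not shown to differ (log2 difference -0.37, edgeR, adjusted p = 0.722).

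Fgf21, Inhbe and Lepr were the 3 of 10 genes that passed for shChREBP in L-G6pc-/-, of which 1 was higher and 2 were lower, against 7.56% of all genes tested (3.33% higher and 4.23% lower). Without the 4 libraries that stood apart, the fall of Inhbe was 0.84 (edgeR, adjusted p = 0.124), and Lepr was the only 1 of the 10 genes that passed, against 1.02% of all genes tested. Against shSCR/L-G6pc+/+, Inhbe in shChREBP/L-G6pc-/- was at -0.79 (edgeR, adjusted p = 0.0242; -0.67 and adjusted p = 0.173 without the 4 libraries). This call was lost without s1 (-0.70, edgeR, adjusted p = 0.0634), without s29 (-0.67, edgeR, adjusted p = 0.0526) or without s30 (-0.74, edgeR, adjusted p = 0.0536). Inhbe overlaps the antisense gene Gm47200, with the same limit on strand as for Igf1.

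**Figure D2:**
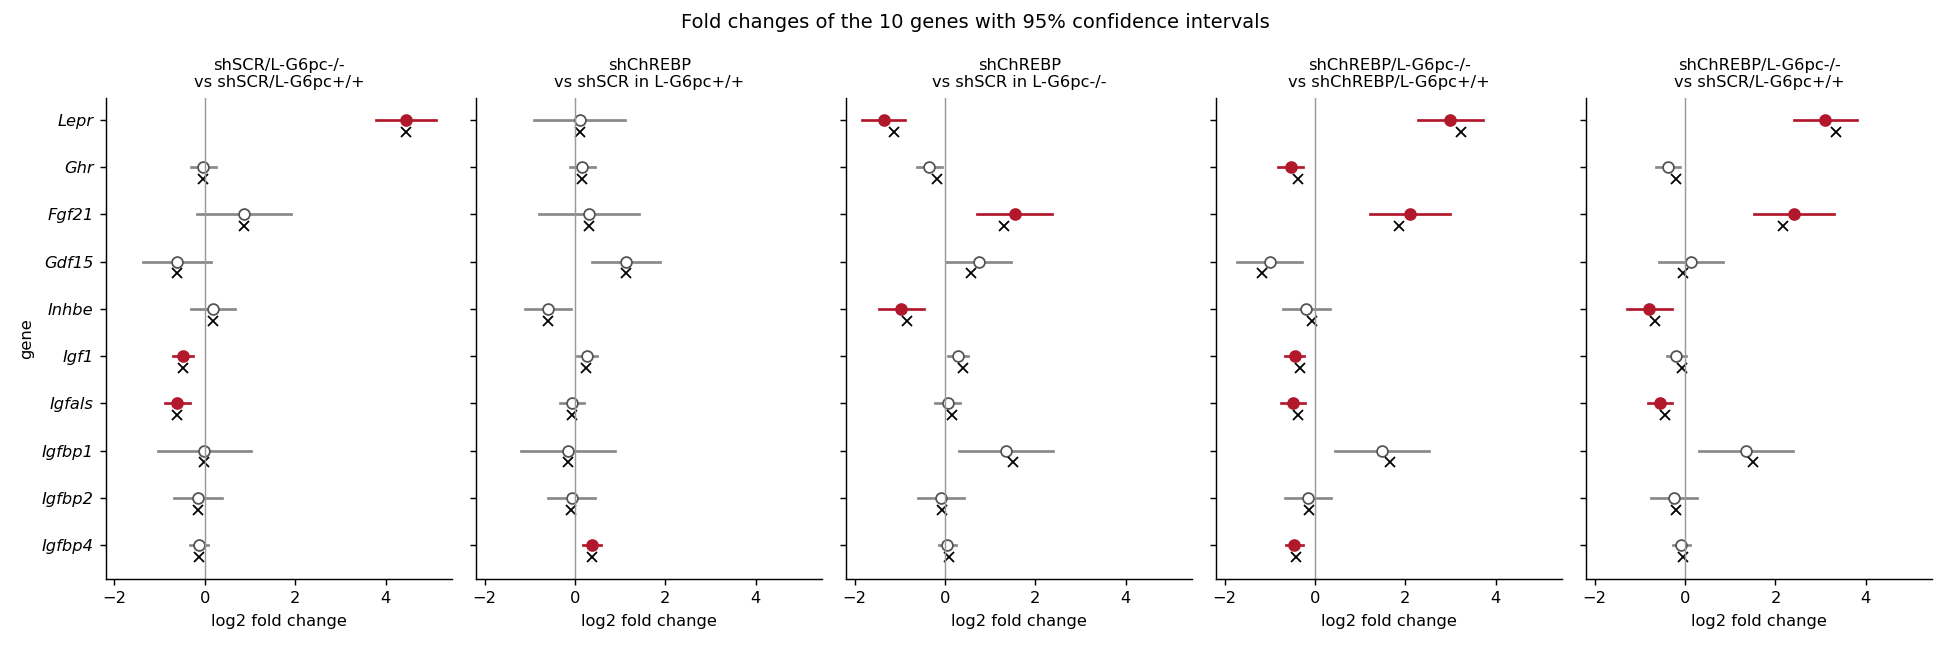
Circles give the log2 fold change of each gene (y axis) in 5 comparisons (panels) with the 95% confidence interval as a line. Filled red circles passed at an adjusted p under 0.05, open circles did not, and black crosses give the value with s29, s30, s32 and s33 left out. Lepr is the only gene far to the right in the first panel, at 4.46, and in the third panel Fgf21 lies to the right of 0 and Lepr and Inhbe to the left.

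Of the binding proteins, Igfbp4, the IGF-binding protein that sequesters IGF until it is cleaved by the protease PAPP-A, was the only 1 of the 10 genes that passed for shChREBP in L-G6pc+/+, against 5.39% of all genes tested (2.16% higher and 3.23% lower). It read 2038, 2422 and 2603 CPM (lowest, median, highest) with shSCR and 2595, 3032 and 3718 CPM with shChREBP. The ranges met at their ends, with the lowest shChREBP library, s9, just under the highest control. The rise was 0.38 on the log2 scale (1.3-fold, 95% interval 0.18 to 0.58, edgeR, adjusted p = 0.0206). It was 0.35 without s2 (edgeR, adjusted p = 0.0512) and 0.33 without s16 (edgeR, adjusted p = 0.0576). In L-G6pc-/- the same hairpin moved it by 0.05 (95% interval -0.14 to 0.25), and the difference of the 2 effects was -0.32 (95% interval -0.60 to -0.05, edgeR, adjusted p = 0.335). Between the shChREBP groups, Igfbp4 was lower in L-G6pc-/- by 0.46 (edgeR, adjusted p = 0.00158; -0.42 and adjusted p = 0.0102 without the 4 libraries that stood apart), at 2229 ± 352 against 3063 ± 349 CPM. Over the 4 groups, shChREBP/L-G6pc+/+ stood alone above, and the other 3 group means lay within 2149 to 2360 CPM without passing any test between them.

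Igfbp1, which insulin represses and fasting and stress raise, was spread widely between libraries of a group. It read 187, 455 and 1181 CPM (lowest, median, highest) in shSCR/L-G6pc+/+, 158, 422 and 1277 CPM in shChREBP/L-G6pc+/+, and 237, 275 and 1426 CPM in shSCR/L-G6pc-/-. In shChREBP/L-G6pc-/- it read 260, 720 and 4640 CPM, a coefficient of variation of 108%. The highest values were those of s31 (4640 CPM), s29 (2770 CPM), s26 (1490 CPM) and s30 (1370 CPM), while the remaining 5 libraries of that group lay within the range of shSCR/L-G6pc+/+. The log2 difference of 1.36 for shChREBP in L-G6pc-/- had an interval of 0.32 to 2.39 and did not pass (edgeR, adjusted p = 0.0947). The difference between the shChREBP groups, 1.49, narrowly missed (edgeR, adjusted p = 0.0537), and against shSCR/L-G6pc+/+ the value was 1.35 (edgeR, adjusted p = 0.0759).

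None of these 3 Igfbp1 differences passed in the main fit, and single libraries moved them both ways. With 1 library left out, adjusted p reached 0.287 for shChREBP in L-G6pc-/- (edgeR). It reached 0.184 between the shChREBP groups and 0.27 against shSCR/L-G6pc+/+ (edgeR). For shChREBP in L-G6pc-/-, the difference passed without s24 (1.74, edgeR, adjusted p = 0.0377). Between the shChREBP groups it passed without s13 (1.87, edgeR, adjusted p = 0.0166), and also without s24, s25, s28, s32 or s33 (edgeR, adjusted p from 0.0295 without s33 to 0.0449 without s24). Against shSCR/L-G6pc+/+ it passed without s6 (1.62, edgeR, adjusted p = 0.0396), s28 or s33 (both 1.47, edgeR, adjusted p = 0.0469 and 0.0472). Two-sided exact permutation of libraries gave unadjusted p = 0.121, 0.109 and 0.165 for these 3 differences.

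Igfbp2, the other abundant binding protein, passed in no comparison. Its means were 739 ± 237 CPM in shSCR/L-G6pc+/+, 701 ± 265 in shChREBP/L-G6pc+/+, 665 ± 284 in shSCR/L-G6pc-/- and 626 ± 266 in shChREBP/L-G6pc-/- (SD). The interval for G6pc loss ran from -0.67 to 0.37 on the log2 scale and that for shChREBP in L-G6pc-/- from -0.60 to 0.42.

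Between the shChREBP groups, 6 of the 10 genes passed: Fgf21 and Lepr were higher and Igf1, Igfals, Igfbp4 and Ghr lower in L-G6pc-/-, against 11% of all genes tested (6.14% higher and 4.9% lower). Without the 4 libraries that stood apart 4 passed, against 8.78% of all genes tested, as Igf1, Igfals and Ghr were lost and Igfbp1 was gained (1.65, edgeR, adjusted p = 0.0493). Against shSCR/L-G6pc+/+, 4 of the 10 genes passed in shChREBP/L-G6pc-/- (Fgf21 and Lepr higher, Inhbe and Igfals lower), against 13.2% of all genes tested (6.87% higher and 6.37% lower), and 2 without the 4 libraries, against 3.09%. These comparisons share groups of libraries, so their values are not independent. None of the 10 genes passed the test for a different shChREBP effect between genotypes with edgeR (0.0786% of all genes tested did), DESeq2 or limma. At an unadjusted p under 0.05 there were 4 (Igfbp1, Igfbp4, Ghr and Lepr), against 12% of all genes tested.

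Some pairs of the 10 genes deviated together within groups. Over 45 pairs, the correlation of deviations from the group mean in log2 CPM was 0.5 or more for 4 pairs and -0.5 or less for 1 (n = 33 libraries, which share depth and tissue composition). The negative pair was Igfbp1 and Inhbe (r = -0.743, rho = -0.661). The library s31 had the most Igfbp1 and 6.35 CPM of Inhbe, and s29 had 2770 CPM of Igfbp1 and the least Inhbe, 5.94 CPM. The correlation was -0.642 after leaving out the 2 libraries farthest from the median in Inhbe and -0.736 without the 4 libraries that stood apart. By group it was -0.476 in shSCR/L-G6pc+/+, -0.238 in shChREBP/L-G6pc+/+, -0.895 in shSCR/L-G6pc-/- and -0.865 in shChREBP/L-G6pc-/-. Igfbp4 and Ghr gave the strongest positive pair (r = 0.729, rho = 0.703), with r between 0.631 and 0.823 in the 4 groups. Igfbp2 followed Ghr (0.584) and Igfbp4 (0.504), but in shSCR/L-G6pc+/+ these were -0.039 and -0.101.

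**Figure D3:**
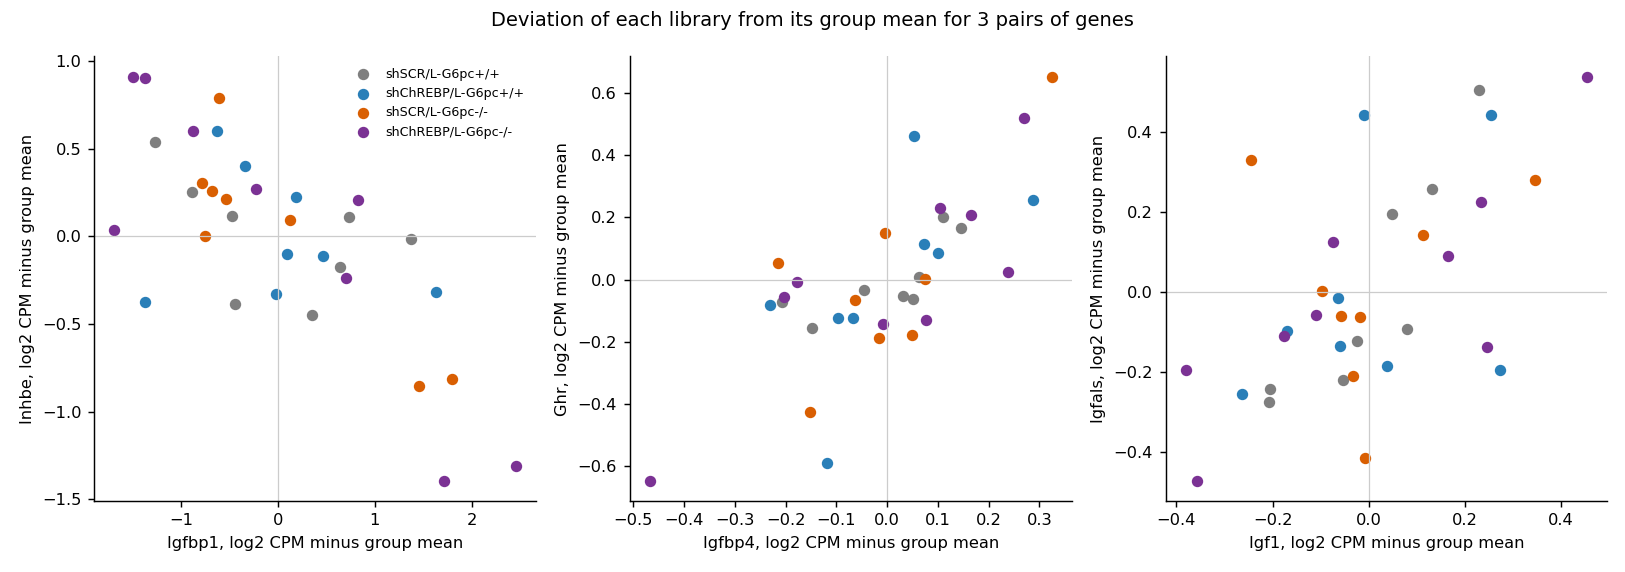
Each point is 1 library, coloured by group, at its deviation from the group mean in log2 CPM for Igfbp1 and Inhbe (left), Igfbp4 and Ghr (middle) and Igf1 and Igfals (right). Inhbe falls as Igfbp1 rises (r = -0.743), and the other 2 pairs rise together (r = 0.729 and 0.59).

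The genes most like Igfbp1 over all libraries were Slc25a25 (r = 0.803), Slc38a2 (0.793) and Ifrd1 (0.779), a mitochondrial carrier, an amino acid transporter and a transcriptional regulator. These likenesses were as strong within groups (0.811, 0.813 and 0.79). For Ghr they were Slc31a1 (0.859), Serpina1d (0.841) and Aldh6a1 (0.835). Serpina1d has near-identical paralogs, so its count is uncertain. For Igfals they were Paxx (0.78), Cela1 (0.778) and Itih1 (0.769), and for Igfbp2 they were Grhpr (0.765), Apoa1 (0.741) and Gna12 (0.714). Igfbp4 was most like Slc22a30 (0.823), Fech (0.822) and Sdc4 (0.816), and Igf1 most like Cyp2c70 (0.787), Mug1 (0.786) and Dpy19l3 (0.772). The likenesses of Fgf21 (Ugdh 0.75, Gss 0.746, Cenpf 0.744), Gdf15 (Inf2 0.784, mt-Tc 0.775, Emp2 0.774) and Inhbe (Pdik1l 0.779, Rtp3 0.767, G0s2 0.728) were of the same size.

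Lists of genes from related pathways were counted beside the share of all genes tested that passed in the same comparison. Of all genes tested, 3.23% passed for G6pc loss and 11% between the shChREBP groups (8.78% without the 4 libraries that stood apart). With shChREBP, 5.39% passed in L-G6pc+/+ and 7.56% in L-G6pc-/- (1.02% without the 4 libraries). Of 15 tested genes of growth hormone signalling and feedback, none passed for G6pc loss (median log2 -0.20, against 0.00 over all genes), and Ptpn2, a phosphatase that acts on JAK and STAT proteins, was the 1 that fell with shChREBP, by 0.64 in L-G6pc+/+ and 0.62 in L-G6pc-/- (edgeR, adjusted p = 0.0394 and 0.0276, and 0.272 in L-G6pc-/- without the 4 libraries that stood apart). Between the shChREBP groups 3 of the 15 were lower in L-G6pc-/-: Stat5a, a transducer of the GH signal, by 0.93 (edgeR, adjusted p = 0.00296), Socs2, a feedback inhibitor induced by it, by 1.54 (edgeR, adjusted p = 0.00932), and the hepatocyte factor Onecut1 by 1.29 (edgeR, adjusted p = 0.0306). Without the 4 libraries that stood apart, Stat5a and Socs2 passed and Onecut1 did not (edgeR, adjusted p = 0.018, 0.0351 and 0.0881). Socs2 was spread over 6.14 to 76.8 CPM in shChREBP/L-G6pc+/+. Of 10 tested IGF receptors, binding proteins and regulators, none passed for G6pc loss or for shChREBP in L-G6pc+/+, and the protease gene Adamts1 rose by 0.69 with shChREBP in L-G6pc-/- (edgeR, adjusted p = 0.037, and 0.257 without the 4 libraries that stood apart). Between the shChREBP groups 2 of the 10 passed: Adamts1 was higher in L-G6pc-/- by 0.84 (edgeR, adjusted p = 0.00839; 0.71 and adjusted p = 0.0396 without the 4 libraries), and Igfbp5 was lower, at -0.995 (edgeR, adjusted p = 0.0069; -1.32 and adjusted p = 0.00515 without the 4 libraries).

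Among genes that depend on the growth hormone rhythm and are higher in male liver, some rose with shChREBP. Of 12 tested, 5 rose and none fell in L-G6pc+/+ (median log2 0.49, against 0.03 over all genes), where 2.16% of all genes tested were called higher. Only 7 of the 12 had a value above 0, and Mup20 was at -0.60 without passing. Those that passed were Selenbp2 (2.79, edgeR, adjusted p = 0.00125), Cyp2d9 (1.04, edgeR, adjusted p = 0.00732), Cyp7b1 (1.05, edgeR, adjusted p = 0.00796), Cyp4a12a and Cyp4a12b. In L-G6pc-/-, the same 5 rose and Cyp2f2 fell (median 0.72, against 0.01 over all genes), with 9 of the 12 above 0, and 3.33% of all genes tested were called higher. Selenbp2 there went from 2, 3.87 and 7.6 CPM (lowest, median, highest) to 17.6, 39.4 and 63 CPM, without overlap (3.22, edgeR, adjusted p = 0.000911). When the 4 libraries that stood apart were left out 2 of the 12 rose, Selenbp2 and Cyp7b1 (edgeR, adjusted p = 0.0469 and 0.023), and none fell. Selenbp2 and the Cyp4a12 pair have close paralogs, and their counts are uncertain. For G6pc loss, Cyp2f2 rose and Cyp7b1 fell among the 12 (median -0.02).

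Of 11 tested genes that are higher in female liver, 1 fell with shChREBP in L-G6pc+/+ (Cyp4a10, by 0.74, edgeR, adjusted p = 0.0443), with a median of -0.49 and no positive value. In L-G6pc-/- Cyp17a1 fell by 1.53 (edgeR, adjusted p = 0.00926) and Cyp2a5 rose by 1.37 (edgeR, adjusted p = 0.000564), with a median of -0.63, and neither passed without the 4 libraries that stood apart (edgeR, adjusted p = 0.17 and 0.104). For G6pc loss, Cyp2a4 rose by 2.12 (edgeR, adjusted p = 0.000184) and Cyp2b13 fell by 1.51 (edgeR, adjusted p = 0.024). Cyp2a4 and Cyp2a5 are near-identical, so reads may be split between them.

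Of 27 tested genes of other secreted liver proteins described as hepatokines, 3 passed for G6pc loss. Selenop, the selenium carrier, rose by 0.60 (edgeR, adjusted p = 9.77e-05), and Enho, which encodes adropin, fell by 1.91 (edgeR, adjusted p = 9.77e-05). Fetub fell by 0.45 (edgeR, adjusted p = 0.0396). Enho read 8.09, 20 and 38.3 CPM in shSCR/L-G6pc+/+ and 0, 5.94 and 10.7 CPM in shSCR/L-G6pc-/-, so that the groups overlapped at their ends. With shChREBP in L-G6pc-/-, Enho rose by 1.57 (edgeR, adjusted p = 0.00106) and 6 of the 27 fell, among them Hgfac, Selenop and Fgl1 (by 0.56, 0.43 and 0.82, edgeR, adjusted p = 0.00292, 0.00316 and 0.00548). The list's median was -0.02 against 0.01 over all genes, and without the 4 libraries that stood apart Enho passed (1.52, edgeR, adjusted p = 0.0266) while Hgfac, Selenop and Fgl1 did not (edgeR, adjusted p = 0.15, 0.211 and 0.212). With shChREBP in L-G6pc+/+ only Hgfac passed, falling by 0.45 (edgeR, adjusted p = 0.0293).

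Of 11 tested activin and inhibin genes, receptors and antagonists, Inhba, another activin subunit, rose by 0.89 with G6pc loss (edgeR, adjusted p = 0.0289). It fell by 0.86 with shChREBP in L-G6pc-/- (edgeR, adjusted p = 0.0166), together with Inhbc (by 0.55, edgeR, adjusted p = 0.0431). Both missed without the 4 libraries that stood apart (edgeR, adjusted p = 0.242 and 0.406). None of the 11 passed with shChREBP in L-G6pc+/+.

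Of 13 tested FGF21 receptors, processing enzymes and regulators, the coactivator gene Ppargc1a rose by 1.22 (edgeR, adjusted p = 0.0301) and Fgf1 fell by 0.46 (edgeR, adjusted p = 0.0382) with G6pc loss. Fgfr3 fell by 0.74 with shChREBP in L-G6pc-/- (edgeR, adjusted p = 0.000269), and passed without the 4 libraries that stood apart (edgeR, adjusted p = 0.0344), and the hairpin's own target Mlxipl, which is on this list, fell as given above. Ppargc1a is also on the list of 13 tested insulin and FOXO1 regulated genes, of which none passed with shChREBP in either genotype. Of 9 tested genes of leptin receptor and GDF15 receptor signalling, none passed in these 3 comparisons.

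Of 25 tested genes of the integrated stress response and ATF4, a pathway known to induce Fgf21, Gdf15 and Inhbe, Herpud1 fell with G6pc loss (by 0.82, edgeR, adjusted p = 0.0207) and Gpt2 fell with shChREBP in L-G6pc+/+ (by 0.57, edgeR, adjusted p = 0.0319). With shChREBP in L-G6pc-/-, Sesn2 rose by 0.67 (edgeR, adjusted p = 0.0285) and Slc3a2 by 0.59 (edgeR, adjusted p = 0.0343), and neither passed without the 4 libraries that stood apart (edgeR, adjusted p = 0.594 and 0.722). The medians of the 25 were 0.02, 0.11 and 0.22 in these 3 comparisons, against 0.00, 0.03 and 0.01 over all genes.

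**Figure D4:**
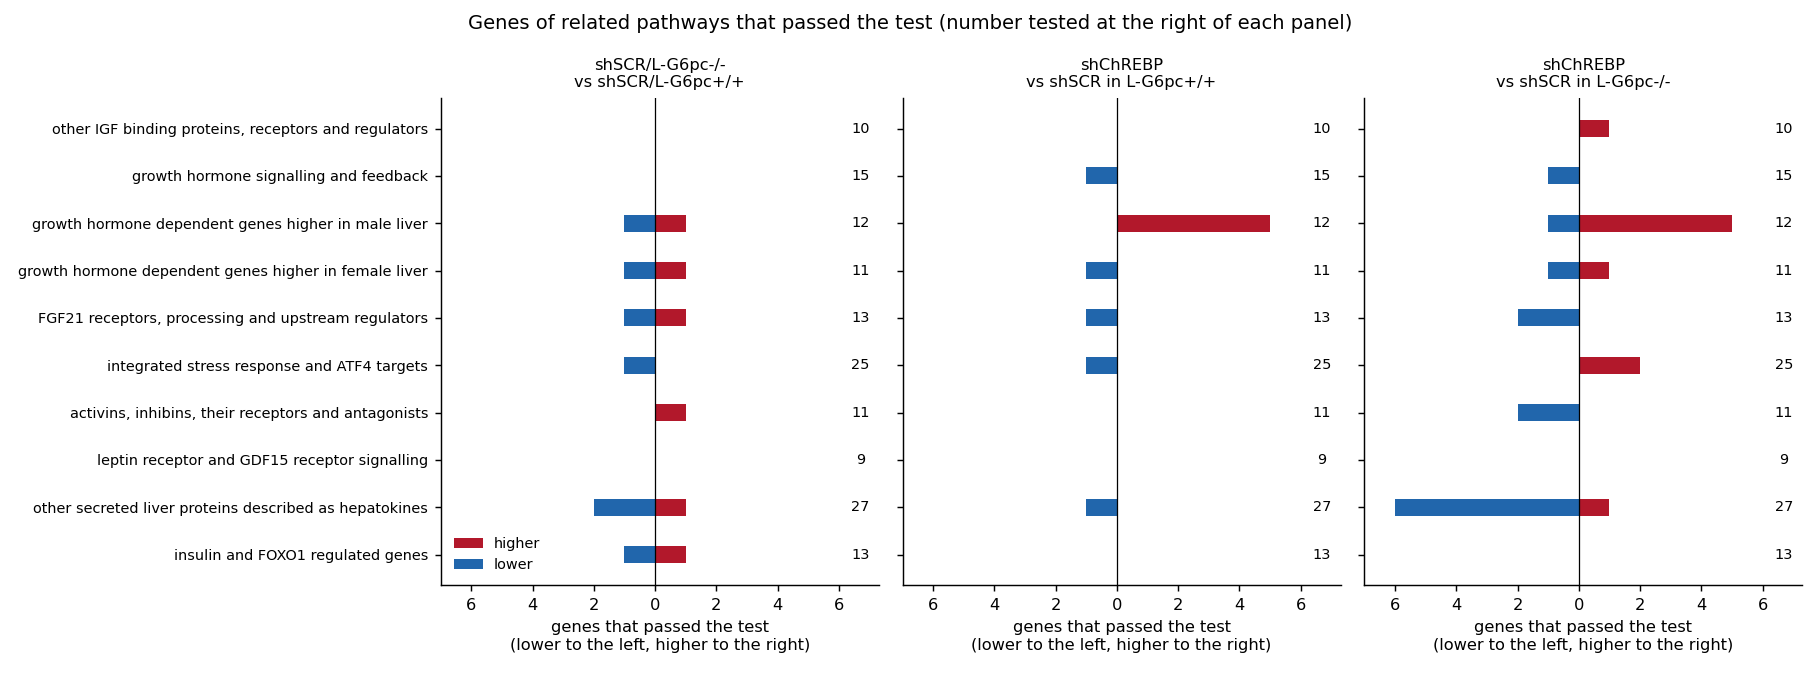
Bars give how many genes of each list passed at an adjusted p under 0.05, lower to the left and higher to the right, in 3 comparisons, with the number tested at the right of each panel. The male-biased growth hormone dependent genes have 5 that rose with shChREBP in each genotype, and the leptin and GDF15 receptor signalling list has no bar.

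Markers of other cells were measured beside these results, and their part in them was not tested. The summed median of 12 Kupffer cell and macrophage markers was 1394 CPM in shSCR/L-G6pc+/+, 1485 in shChREBP/L-G6pc+/+, 1877 in shSCR/L-G6pc-/- and 2085 in shChREBP/L-G6pc-/-. These sums overlapped between all groups. For G6pc loss none of the 12 passed, with a median log2 of 0.002 and 6 of the 12 above 0. Of the 12, 3 were higher with shChREBP in L-G6pc-/-, against 3.33% of all genes tested (edgeR, adjusted p from 0.239 to 0.296 for these 3 without the 4 libraries that stood apart). Sums for the 10 sinusoidal endothelial markers (medians of 362 to 423 CPM) and the 12 stellate cell and fibroblast markers (335 to 420 CPM) overlapped between all groups. The medians for cholangiocyte markers were 33.5 to 38.4 CPM, those for lymphocyte and neutrophil markers 92.7 to 139 CPM and those for red blood cell markers 944 to 1719 CPM. No marker was at 0 in every library. Of the 12 hepatocyte markers, 4 were lower with shChREBP in L-G6pc-/- (1 without the 4 libraries that stood apart), against 4.23% of all genes tested. This was seen beside the fall of Lepr and Inhbe and the rise of Fgf21. Alb fell by 0.79 and Apoc3 rose by 0.63 with G6pc loss (edgeR, adjusted p = 3.68e-05 and 0.0013), beside the fall of Igf1 and Igfals. Only L-G6pc-/- mice carried the Cre that is expressed from the albumin gene. Its effect on Alb counts therefore cannot be told apart from that of G6pc loss. The same limit holds for the hepatocyte marker sums, which include Alb. It also holds, as given above, for every other gene compared between genotypes, Lepr, Igf1 and Igfals among them.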

How the data were processed

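Mouse liver RNA was made into 33 libraries for 3′ QuantSeq. Per the labels and the study's methods, reads were aligned with HISAT to GRCm38 (Ensembl release 82), handled with SAMtools and counted per gene with HTSeq (versions not given in the sources used here). The authors deposited raw counts and a normalized signal per gene, which behaves as (count + 0.5) divided by 1 number per library. The main analysis used the deposited counts: edgeR 4.0.16 (filterByExpr with a minimum count of 10, TMM, quasi-likelihood test) in 1 fit of all 33 libraries by group, with Benjamini-Hochberg adjustment over 10179 genes. limma 3.58.1 on the deposited signal and DESeq2 1.42.0 were alternatives, as were other scalings, no filter, only the groups compared, and each library left out. The script was tested on simulated data. Single values were also compared by two-sided exact permutation of mean log2 CPM (prior count of 2), with unadjusted p. Intervals are 95%.

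The 10 genes, lists and tests were chosen with earlier results of these data known. Named were the 10 genes, up to 4 genes with the smallest p per list and comparison described (others where a count is given), and for each of the 10 genes the 3 most like it among named genes with a mean of at least 5 CPM. Of 246 list symbols, 244 were in the table. Libraries s29, s30, s32 and s33, and s9 and s13, were left out in alternatives added after seeing the data. Some results that these rules name are not reported here.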

Additional observations from a re-analysis of the deposited data

Results flagged for a closer look

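Among the 40 combinations of gene and group, 4 held a library whose gap to its nearest neighbour was larger than Dixon's 95% limit. For normally distributed values chance alone flags about 1 in 20 groups. The limit was applied to CPM without a log transform, so the rate by chance in these data is not known. Lepr was 44.5 CPM in library s31 of shChREBP/L-G6pc-/-, against 23.2 CPM in the next library. Igfbp1 was 1280 CPM in s13 of shChREBP/L-G6pc+/+, the highest of its group by a wide gap. Ghr was 499 CPM in s23 of shSCR/L-G6pc-/-, against 351 CPM, and Fgf21 was 13.4 CPM in s17 of the same group, against 6.76 CPM. All 4 were the highest of their group. Among the pathway genes, Cyp2a5 was the 1 whose shChREBP effect differed between genotypes, by 1.78 on the log2 scale (edgeR, adjusted p = 0.0365), and this was 1.20 (adjusted p = 0.0922) with s29, s30, s32 and s33 left out.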

How the results depend on the processing

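No paired analysis was possible because the replicate numbers are not shared between groups. Of the 17 calls among the 60 gene and comparison values, no direction was reversed under any alternative run, and those for G6pc loss (3 genes) passed under all of them. The number of genes that passed for shChREBP in L-G6pc+/+ was 1, and became 2 with limma-voom and with limma on the deposited values and 3 when only the 2 groups were fitted, through Gdf15 and Inhbe. For shChREBP in L-G6pc-/- it went from 3 to 1, and against shSCR/L-G6pc+/+ from 4 to 2, without s29, s30, s32 and s33; fewer samples enter that fit. Leaving out 1 library at a time gave 0 to 2 genes for shChREBP in L-G6pc+/+ (0 without s2 or s16, 2 without s12, s19 or s21), 3 to 4 in L-G6pc-/-, 6 to 8 between the shChREBP groups, 3 to 6 against shSCR/L-G6pc+/+, 3 for G6pc loss and 0 for the difference of effects. Scaling by library size alone moved the median of all genes for shChREBP in L-G6pc-/- to 0.11. Igf1, at 0.27 relative to that median, then passed (adjusted p = 0.0145), and Inhbe was lost against shSCR/L-G6pc+/+ (-0.71, adjusted p = 0.0552). Without a filter on low counts Igfbp4 was lost in L-G6pc+/+ (adjusted p = 0.136), and with limma on the deposited values Fgf21 was lost in L-G6pc-/- (adjusted p = 0.0642). The causes were not tested. Depth limits Lepr and Fgf21 in L-G6pc+/+ liver, at 1 to 17 reads per library.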
